A study of Homo sapiens with 12 samples.

Results

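The lecticans, the tenascins of the nervous system and the link proteins are the secreted proteins of the hyaluronan matrix that fills the space between neural cells. The 10 genes of this set, the lecticans BCAN, NCAN, VCAN and ACAN, the tenascins TNC and TNR and the link proteins HAPLN1, HAPLN2, HAPLN3 and HAPLN4, were taken by name from the 58302 genes counted. They were measured by RNA-seq in 12 samples of H1 cells, a human embryonic stem cell line. Wild-type (WT) cells were compared with H1-dKO cells (H1-JMJD3-/-/UTX-/Y), in which the catalytic region of both H3K27 demethylases, UTX (KDM6A) and JMJD3 (KDM6B), had been deleted with Cas9 and a puromycin donor. Each of the 6 groups had 2 samples: WT NPCs and dKO NPCs (neural progenitor cells, kept as neural spheres with FGF2 and EGF) at passage 2 (P2), the same NPCs at passage 4 (P4), and WT and dKO cells at day 28 (D28) after P2 NPCs were plated without FGF2 and EGF. The medium of the D28 cells also held added GDNF, BDNF and cAMP, so D28 differs from the NPCs by more than the loss of FGF2 and EGF. The dKO samples come from a single edited genotype and the study's methods select clones, so a difference between dKO and WT cannot be told apart from a difference between clones.

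Lecticans are chondroitin sulfate proteoglycans. One end of the core protein binds hyaluronan, the other binds tenascins, and the stretch between them carries the sugar chains. Link proteins clamp the lectican to hyaluronan. Tenascin-R, which forms trimers, cross-links lecticans at their far end, so that the 3 families build a single network, which is densest in the perineuronal nets around mature neurons. Versican (VCAN) and tenascin-C (TNC) are known as matrix of the immature nervous system, neurocan (NCAN) rises as neural tissue forms, and brevican (BCAN) and tenascin-R (TNR) belong to later glia and neurons. Aggrecan (ACAN) is the main proteoglycan of cartilage and is also found in perineuronal nets.

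In WT cells the lecticans BCAN and NCAN and both tenascins were higher at P4 and at D28 than at P2, and in dKO cells none of these 4 was called higher. VCAN was called in none of the comparisons, with group means from 432 CPM in dKO P4 NPCs to 826 CPM in WT P4 NPCs. The ratio of dKO to WT was 0.00724 at P4 and 0.0066 at D28 for BCAN, and 0.0329 and 0.0178 for TNR, whose ratios rest on 5 dKO counts at each stage. Of the link proteins, HAPLN1 and HAPLN3 had low counts that were higher in dKO than in WT NPCs at P4, and ACAN and HAPLN4 were hardly counted. The set was chosen from the levels of these genes across the 6 groups, seen in earlier results, so their differences are given as a description and without a p-value.

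The lecticans and link proteins lie in the genome as 4 pairs, each with no other protein-coding gene between its members (hg38, GENCODE). BCAN (ENSG00000132692, chr1:156641390-156659532, plus strand) and HAPLN2 (ENSG00000132702) are 15664 bases apart. NCAN (ENSG00000130287, chr19:19211958-19252233, plus strand) and HAPLN4 (ENSG00000187664) are 2522 bases apart. VCAN (ENSG00000038427, chr5:83471618-83582303, plus strand) and HAPLN1 (ENSG00000145681) are 55501 bases apart, and ACAN (ENSG00000157766) and HAPLN3 (ENSG00000140511) on chromosome 15 are 1940 bases apart. TNC (ENSG00000041982) lies on the minus strand at chr9:115019575-115118207, and TNR (ENSG00000116147) on the minus strand at chr1:175315194-175743595. Whether the counting used strand is not given in the sources used here, so reads of an overlapping gene on the other strand may be included.

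The start regions of BCAN, VCAN and TNC are shown because these 3 genes behaved differently in dKO cells: BCAN stayed low, VCAN differed least, and TNC was higher at P2 and lower later. Each is taken from the 250 bases before the RefSeq start (GRCh38.p14) and ends before the first base that GENCODE annotates as UTR or coding, 5′ to 3′, with the dinucleotide CG in capitals. The annotations place the starts differently: the RefSeq start lies 727 bases downstream of the GENCODE gene start for BCAN, 126 for VCAN and 50 for TNC. The BCAN stretch is therefore inside the GENCODE gene, in an intron of the BCAN transcript that starts first and over a lncRNA exon on the minus strand, and the VCAN stretch ends in the first exon of a VCAN transcript with a retained intron:
BCAN (chr1:156641867-156642113, plus strand): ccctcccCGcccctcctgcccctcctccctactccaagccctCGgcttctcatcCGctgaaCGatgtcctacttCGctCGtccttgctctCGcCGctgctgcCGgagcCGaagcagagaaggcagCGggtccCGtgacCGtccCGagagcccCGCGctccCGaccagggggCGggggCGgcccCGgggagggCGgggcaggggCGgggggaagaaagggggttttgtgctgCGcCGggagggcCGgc
VCAN (chr5:83471494-83471673, plus strand): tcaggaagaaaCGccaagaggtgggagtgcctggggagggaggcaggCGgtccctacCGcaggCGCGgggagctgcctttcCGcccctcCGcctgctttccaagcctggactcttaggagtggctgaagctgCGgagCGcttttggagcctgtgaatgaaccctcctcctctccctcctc
TNC (chr9:115118208-115118407, minus strand): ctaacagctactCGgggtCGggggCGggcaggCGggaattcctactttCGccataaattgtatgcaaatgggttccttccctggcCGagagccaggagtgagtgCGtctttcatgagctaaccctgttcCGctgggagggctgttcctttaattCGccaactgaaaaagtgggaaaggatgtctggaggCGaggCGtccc
The BCAN stretch of 247 bases held 25 CG, the VCAN stretch of 180 bases held 9 and the TNC stretch of 200 bases held 11. In the full 250 bases before the RefSeq start, BCAN had 26 CG, a number that 19.6% of the 35116 promoters in the table reached, and VCAN had 12, which 48.5% reached. ACAN had 28, HAPLN4 14, TNC 12, HAPLN3 11, HAPLN1 5 and HAPLN2 4, against a median of 11 over the table. ACAN, with the most CG of these 8 promoters, and HAPLN2, with the fewest, were both low in all 12 samples. CG is the same on both strands, and its number describes these windows and not how they are regulated. NCAN and TNR had no entry.

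Values are CPM, the counts scaled to a common library size after TMM, a trimmed mean that sets the samples to one level. Totals ran from 756942 to 10601172 counts and were lowest in the P2 NPCs, at 756942 to 1438807, so that 3 counts are worth between 0.283 and 3.96 CPM, depending on the sample. Intervals and floors cover counting error only. A gene is called where a single edgeR fit of the 6 groups gave it p below 0.05, not adjusted, and more than a 2-fold difference. The fit covered 13454 genes whose counts averaged 20 or more. Of the 10 genes, 6 passed that filter: VCAN, NCAN, BCAN, TNC, TNR and HAPLN1. HAPLN1 was just above it at a mean of 39.8 counts, HAPLN3 (16.9) and HAPLN2 (13.8) were just below, and ACAN (1.0) and HAPLN4 (0.2) were far below. A gene that passes only through the group in which it is high has to differ between groups, so the 6 do not stand for all 10. Counts differed between the 2 samples of a group by a chi-square of 1.55 to 3.3 per degree of freedom, but of 14 in dKO D28 cells, so the dKO D28 samples stand apart from each other. KDM6A was counted in every sample, at 27.3 to 60.3 CPM, and KDM6B at 115 to 202 CPM. These whole-gene counts cannot show the loss of the deleted part. Nothing in the labels says that the 2 samples of a group came from separate cultures, so p-values measure only the spread between these samples.

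**Figure D1:**
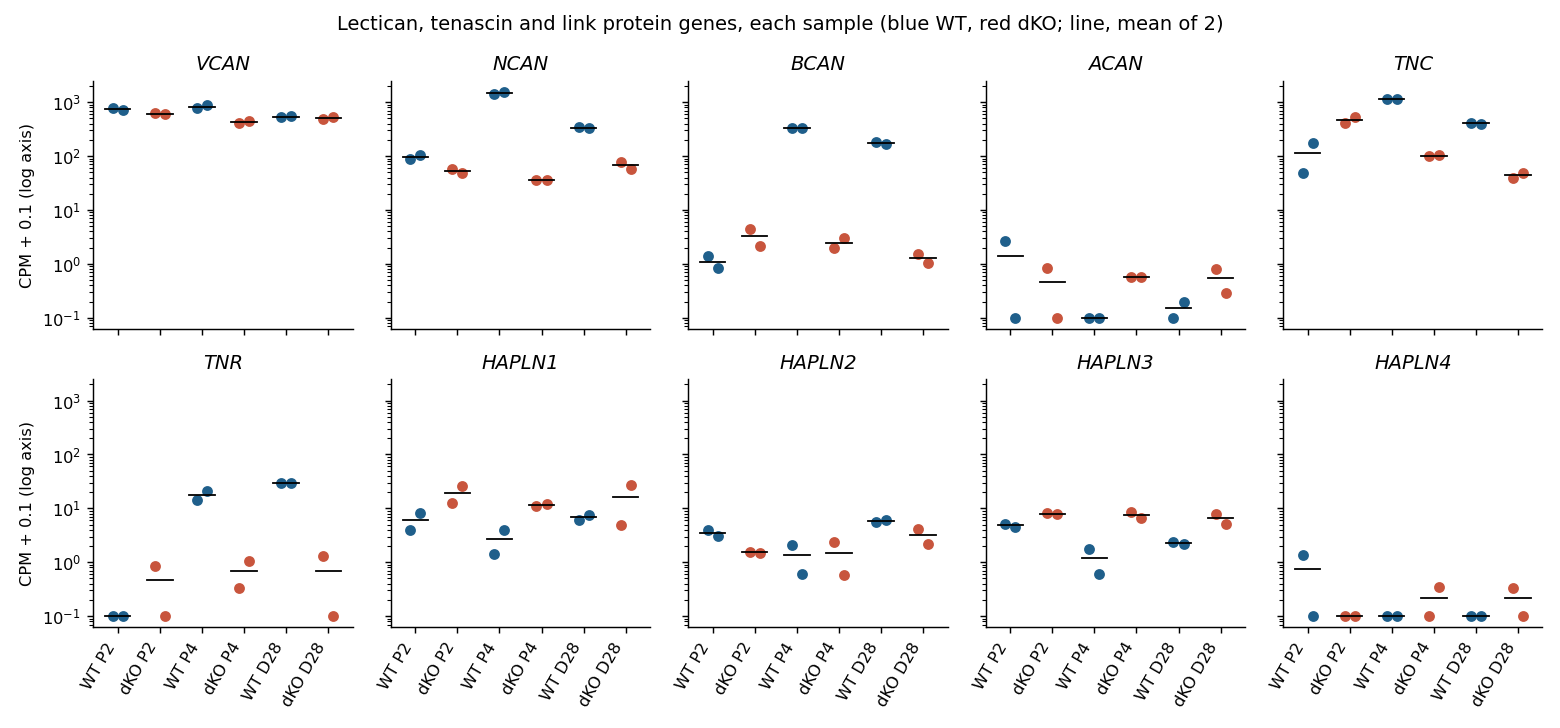
CPM of the 10 genes in each of the 12 samples (points, WT blue and dKO red; line, mean of 2) on a log axis after adding 0.1, for P2 and P4 NPCs and D28 cells. VCAN stays between 414 and 874 CPM, while BCAN, NCAN and both tenascins separate WT from dKO at P4 and D28; ACAN and HAPLN4 sit at 0 to 3 counts.

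VCAN, the large lectican of immature matrix, had the most even level of the set. WT NPCs had 773 and 708 CPM at P2 and 777 and 874 CPM at P4, and WT D28 cells had 530.5 and 546 CPM. dKO NPCs had 620.4 and 595 CPM at P2 and 414 and 451 CPM at P4, and dKO D28 cells had 491.5 and 521 CPM. The dKO samples were below the WT samples at all 3 stages without overlap, but the log2 difference was small at P2 (-0.28 ± 0.10, SE) and D28 (-0.08 ± 0.10). At P4 it was -0.93 ± 0.10, just under the 2-fold threshold, and it was called without WT P4 replicate 1 (-1.01). With the GC content and gene length correction the D28 difference turned to 0.10. VCAN was thus called in none of the comparisons of all 12 samples, although its highest group, WT P4, and its lowest, dKO P4, were far apart. In order of the mean it ran WT P4, WT P2, dKO P2, WT D28, dKO D28 and dKO P4, and of these neighbours WT P4 and WT P2 (826 ± 69.2 and 740.4 ± 45.7 CPM, SD, n = 2) differed by little more than their spread.

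NCAN, a lectican found almost solely in the nervous system, had the highest level of any lectican in WT P4 NPCs. It had 89.9 and 104 CPM in WT NPCs at P2, 1417 and 1526 CPM at P4, and 345.5 and 325 CPM in WT D28 cells. The same gene had 57.6 and 49.4 CPM in dKO NPCs at P2, 35.3 and 36.7 CPM at P4, and 78.7 and 57.0 CPM in dKO D28 cells. WT and dKO did not overlap at any stage. dKO was lower than WT by a log2 difference of -0.87 ± 0.18 at P2, -5.35 ± 0.15 at P4 and -2.31 ± 0.14 at D28, and the P4 and D28 differences were called. In WT cells NCAN was higher by 3.90 ± 0.15 at P4 and by 1.77 ± 0.15 at D28 than at P2. In dKO cells the change was -0.57 ± 0.17 at P4 and 0.34 ± 0.16 at D28, neither of them called.

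BCAN, the brevican gene, went from almost no counts to a high level in WT cells and stayed near 0 in dKO cells. WT NPCs at P2 had 1 count in each sample (1.28 and 0.733 CPM). WT NPCs at P4 had 988 and 1282 counts (326 and 325 CPM), and WT D28 cells had 1544 and 1719 counts (183 and 171 CPM). The 6 dKO samples had 3 to 12 counts each, which is 4.43 and 2.09 CPM at P2, 1.84 and 2.90 CPM at P4, and 1.43 and 0.95 CPM at D28. With only 2 counts in WT P2 NPCs, the counts give a ratio of 349 between WT P4 and P2 (95% exact interval 96.5 to 2884) and of 189 between WT D28 and P2 (52.2 to 1560). dKO was lower than WT by a log2 difference of -7.08 ± 0.19 at P4 (-7.77 with the GC content and gene length correction) and -7.20 ± 0.21 at D28. At P2, where dKO NPCs had 9 counts and WT NPCs 2, the difference (1.75 ± 0.78) was not called. In dKO cells BCAN had 9 counts at P2 and 11 in the larger D28 libraries, a log2 change of -1.45 ± 0.53. That change was called, but not with the adjusted p (which called 5% of all genes), nor without dKO NPC replicate 1 (-0.83) or dKO D28 replicate 2 (-1.15).

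ACAN, the aggrecan gene, had 12 counts over all 12 samples and at most 3 in any of them. WT P4 NPCs had 0 counts of ACAN, which allows up to 0.43 CPM over both samples. No difference between groups was detectable at this depth.

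The lecticans were then compared with each other per kilobase of exon, since VCAN has 14678 exonic bases and BCAN 4765. VCAN made up 76.0 to 79.6% of lectican CPM per kb in WT P2 NPCs and 81.9 to 84.2% in dKO P2 NPCs. In WT NPCs at P4 its share was 16.2 to 17.1%, with 62.8 to 63.3% NCAN and 19.6 to 21.0% BCAN. In WT D28 cells the 3 genes were close to even, at 29 to 31.0% VCAN, 39.2 to 40.1% NCAN and 29.8 to 30.8% BCAN. In dKO cells VCAN kept 83.6 to 83.8% at P4 and 74.0 to 80.8% at D28, and BCAN had at most 1.80% in any dKO sample. The summed lectican level was 326 to 348 CPM per kb in WT P4 NPCs and 33.7 to 36.7 in dKO P4 NPCs, and 120.0 to 124 in WT D28 cells and 43.9 to 45.2 in dKO D28 cells. The make-up of lectican RNA in dKO cells at P4 and D28 was thus closer to that of either P2 group than to that of WT cells of the same stage.

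**Figure D2:**
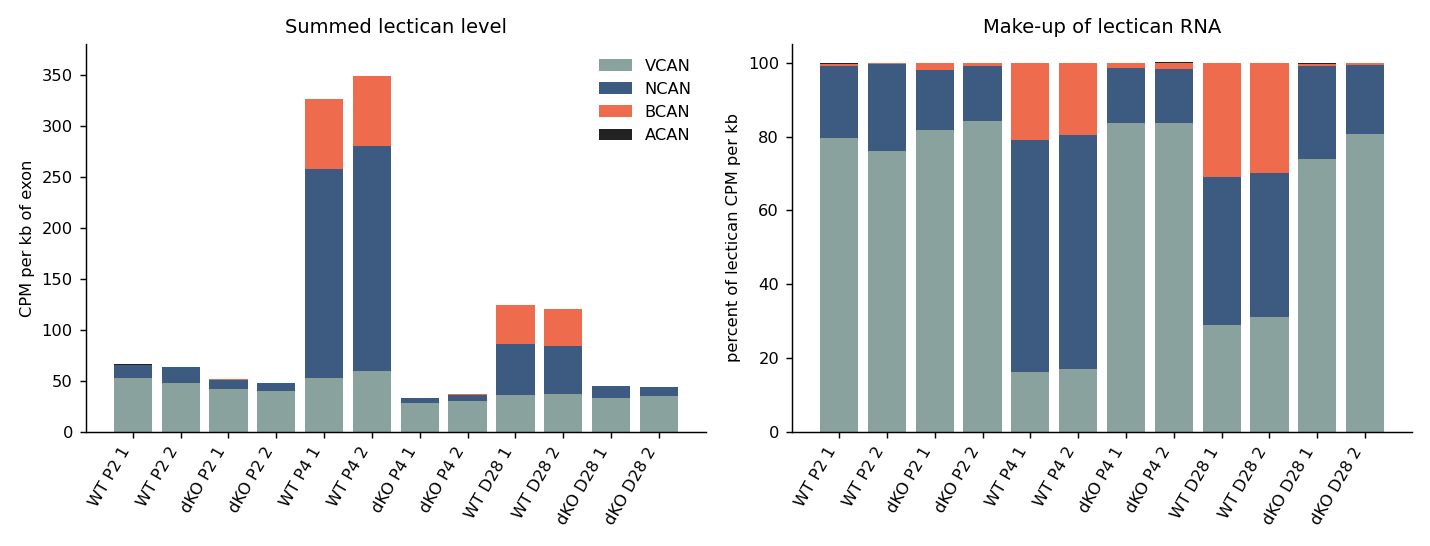
Lectican RNA in each of the 12 samples, as summed CPM per kb of exon (left) and as the percent given by VCAN, NCAN, BCAN and ACAN (right). NCAN and BCAN fill most of the bar in the 4 WT samples at P4 and D28, and VCAN gives 74.0% or more in the 6 dKO samples and 76.0% or more in the 2 WT P2 samples.

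TNC, the tenascin of migrating and dividing progenitors, was the 1 gene of the set called higher in dKO than in WT NPCs at P2. It had 48.8 and 178 CPM in WT NPCs at P2, 1145 and 1170.5 CPM at P4, and 409 and 399 CPM in WT D28 cells. dKO NPCs had 412 and 529 CPM at P2 and 98.5 and 104 CPM at P4, and dKO D28 cells had 39.4 and 49.2 CPM. So TNC went up from P2 in WT cells and down from P2 in dKO cells, and WT and dKO did not overlap at any stage. dKO was higher by a log2 difference of 1.95 ± 0.42 at P2, and lower by -3.51 ± 0.40 at P4 and -3.18 ± 0.41 at D28. The P2 call rests on 2 WT samples that differed by more than 3-fold and was lost with the adjusted p, which called 1.48% of all genes. Without WT P2 replicate 2, the higher of them, the difference was 3.27. From P2 to P4, TNC changed by 3.24 ± 0.42 in WT NPCs and by -2.22 ± 0.39 in dKO NPCs. From P2 to D28 it changed by 1.73 ± 0.41 in WT cells and by -3.40 ± 0.42 in dKO cells. Without WT P2 replicate 2, the WT changes were 4.56 to P4 and 3.04 to D28.

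TNR, the cross-linker of the mature network, had 0 counts in both WT P2 NPC samples. It had 43 and 82 counts (14.2 and 20.8 CPM) in WT P4 NPCs and 249 and 302 counts (29.5 and 30.0 CPM) in WT D28 cells. The dKO samples had 1 and 0 counts at P2, 1 and 4 counts at P4, and 5 and 0 counts at D28, at most 1.19 CPM. Against a floor of 3 counts over both WT P2 samples (1.40 CPM), TNR was at least 12.8-fold higher in WT P4 NPCs and at least 21.3-fold higher in WT D28 cells, and its fitted fold changes there depend on the prior count and are not printed. dKO was lower than WT by -4.83 ± 0.59 on the log2 scale at P4 and by -5.72 ± 0.54 at D28. The size of these differences depended on single dKO samples. With 1 dKO P4 sample alone, the counts gave a ratio of dKO to WT of 0.0539 (95% exact interval 0.0144 to 0.141, without replicate 1) or 0.0129 (0.000323 to 0.073, without replicate 2). At D28 the ratio was 0.0401 (0.013 to 0.0941) without dKO D28 replicate 2, and without replicate 1 the remaining dKO sample had 0 counts, so that TNR was at least 52.2-fold lower against its floor of 3 counts. The GC content and gene length correction gave a log2 difference of -4.65 at D28. By CPM per kb TNR stayed a small part of tenascin RNA, at 5.14 to 5.34% of TNC and TNR together in WT D28 cells and 0.922 to 1.32% in WT P4 NPCs.

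HAPLN1, the link protein of cartilage and early neural matrix, had low and variable counts. WT NPCs had 3.85 and 8.06 CPM at P2 and 1.32 and 3.81 CPM at P4, and WT D28 cells had 5.92 and 7.55 CPM. dKO NPCs had 12.6 and 26.4 CPM at P2 and 11.1 and 12.1 CPM at P4, and dKO D28 cells had 4.77 and 27.6 CPM. The dKO samples lay above the WT samples at P2 and P4, and at D28 they lay on either side of them. HAPLN1 was not called in any comparison, with log2 differences between dKO and WT of 1.60 ± 1.09 at P2, 2.09 ± 0.94 at P4 and 1.3 ± 0.67 at D28. It was called higher in dKO at all 3 stages by DESeq2 (1.64, 2.12 and 1.28) and with the replicate block (1.70, 2.24 and 1.12), and at P4 with the GC content and gene length correction (2.59). At D28 the 2 dKO samples gave opposite signs, with a difference of 2.02, called, without replicate 1 and of -0.50, not called, without replicate 2. Without WT P4 replicate 2 the P4 difference was 3.11, not called, and leaving out 1 P2 sample moved the P2 difference to between 0.96 (without dKO replicate 2) and 2.34 (without WT replicate 2).

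HAPLN3, whose gene neighbours ACAN, had 2 to 37 counts in a sample. It had 5.13 and 4.40 CPM in WT NPCs at P2, 1.65 and 0.508 CPM at P4, and 2.25 and 2.09 CPM in WT D28 cells, against 8.12 and 7.65, 8.53 and 6.52, and 7.87 and 5.13 CPM in the dKO samples of the same stages. The dKO samples were higher without overlap at all 3 stages. Without the low-count filter (genes with at least 1 count), HAPLN3 was called as higher in dKO by 2.84 ± 0.53 at P4 and 1.5 ± 0.39 at D28, and as lower in WT NPCs at P4 than at P2 (-2.11 ± 0.74). HAPLN2, a link protein of the nodes of Ranvier in myelinated fibres, had 2 to 61 counts, with 5.45 and 6.06 CPM in WT D28 cells and 4.05 and 2.09 CPM in dKO D28 cells. In the other 8 samples HAPLN2 lay between 0.483 and 3.85 CPM, and it was not called with either filter. HAPLN4 had 3 counts in all.

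Read together, 0 of the 6 tested genes were called higher and 4 lower in dKO than in WT NPCs at P4, where 22.3% of all tested genes were called (11.2% as lower). The same 4 genes, BCAN and NCAN with both tenascins, were called lower at D28, where 24.2% of all genes were called (11.7% as lower). At P2, 1 was called higher and 0 lower, against 4.42% of all genes. From P2 to P4 in WT NPCs 4 were called higher and 0 lower (19.8% of all genes called), and from P2 to D28 in WT cells 4 higher and 0 lower (24.4%). In dKO cells 0 were higher and 1, TNC, lower from P2 to P4 (9.83%), and 0 higher and 2, BCAN and TNC, lower from P2 to D28 (7.14%). The change from P2 to D28 differed between the genotypes in 4, all lower in dKO, against 23.2% of all genes. These comparisons share samples, and the genes were listed with these contrasts known, so nothing is read from the counts. The median log2 difference of the 6 genes was -4.17 at P4 and -2.74 at D28, beside 0.02 and 0.00 over all genes tested. BCAN and TNR passed the low-count filter only through WT P4 and WT D28 cells, so nothing is read from the medians either.

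**Figure D3:**
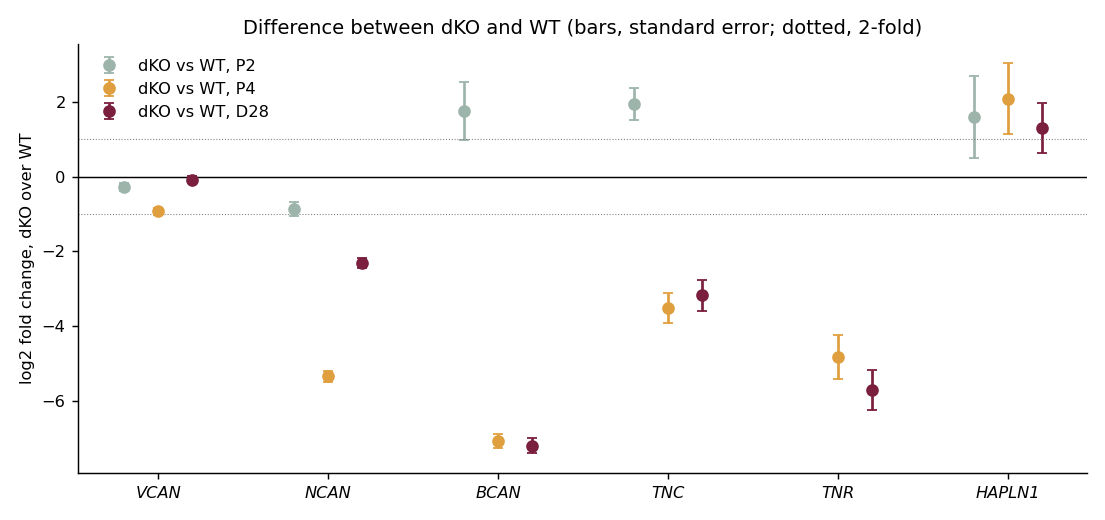
Log2 fold change of dKO over WT (points) with its standard error (bars) for the 6 genes past the low-count filter at P2, P4 and D28; TNR at P2, with 1 count in all, is left out. NCAN, BCAN, TNC and TNR lie below the dotted 2-fold line at P4 and D28, VCAN lies within the lines at all 3 stages, and HAPLN1 lies above 0.

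Over the 12 samples, log2 CPM of BCAN had a Pearson's r of 0.96 with TNR and 0.90 with NCAN, and VCAN had an r of 0.37 with BCAN and 0.21 with TNR. HAPLN1 had negative r with the other 5 genes, from -0.30 with TNC to -0.74 with NCAN. These values describe 12 samples in 6 groups that share differences in depth and stage. By the same measure, the genes most like BCAN were STX12 (0.990) and ATP8A2 (0.988), those most like NCAN were GPM6A (0.992) and BICD1 (0.989), and those most like TNR were TTC3 and TIPRL (both 0.980). GPM6A, a neuronal membrane glycoprotein, had 1194 and 1389 CPM in WT P4 NPCs and 41.0 and 49.3 CPM in dKO P4 NPCs. ATP8A2, a phospholipid flippase, had 102 and 103 CPM in WT P4 NPCs and 20.8 and 19.1 CPM in dKO P4 NPCs. TNC was most like EIF4G2 (0.983) and CFL1 (0.970), and VCAN most like TMEM131 (0.972) and SALL1 (0.971).

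Which cells were in the samples was read from marker lists. All 7 neural progenitor markers were counted in every group, and POU5F1 and NANOG were at 0 in all 12 samples. The progenitor list summed to 7402.5 to 7481 CPM in WT and 5261 to 5305 CPM in dKO P4 NPCs, and to 4498.5 to 4556 CPM in WT and 3387 to 4259 CPM in dKO D28 cells. Its members differed in direction. FABP7 had 1861 and 1700 CPM in WT P4 NPCs and 85.8 and 78.0 CPM in dKO P4 NPCs. PAX6 had 11.7 and 11.5 CPM in WT D28 cells and 186.5 and 351 CPM in dKO D28 cells. The 7 neuron markers summed to 4067 to 4614 CPM in WT P4 NPCs and 3423 to 3425 CPM in WT D28 cells, against 774 to 805 CPM in dKO P4 NPCs, 600.2 to 1041 CPM in dKO D28 cells and 1127 to 1280 CPM in WT P2 NPCs. The 7 astrocyte markers summed to 2088 to 2295 CPM in WT P4 NPCs and 627 to 673.5 CPM in dKO P4 NPCs, and to 522 to 532.5 CPM in WT D28 cells and 284 to 771 CPM in dKO D28 cells. Within that list SLC1A3, the glial glutamate transporter, had 1759.5 and 1923 CPM in WT P4 NPCs and 16.1 and 19.6 CPM in dKO P4 NPCs. GJA1 (connexin 43), a gap junction protein that progenitors and other cell types also make, went the other way, at 92.4 and 86.6 CPM in WT P4 NPCs against 594 and 633 CPM for dKO, and at 118 and 110 CPM in WT D28 cells against 246 and 738 CPM for dKO. It made up most of the list's sum in dKO cells. The other 6 astrocyte markers summed to 1995 to 2208 CPM in WT and 33.2 to 40.3 CPM in dKO P4 NPCs, and to 412 to 414 CPM in WT and 32.7 to 38.2 CPM in dKO D28 cells, a split made after the values were seen. SLC1A3 alone made up most of these WT sums, with 261 and 264 CPM in WT D28 cells, so they are mainly the level of 1 gene. Each of the 6 was lower in dKO than in WT samples at P4 and D28, and GFAP was at most 23.4 CPM in any sample. MOG, the defining marker of myelin, was at 0 in all 12 samples, and the other 6 oligodendrocyte lineage markers brought that list to 23.4 to 70.3 CPM. The neuron list and the astrocyte markers other than GJA1 therefore moved with BCAN, NCAN and TNR at P4 and D28, while the sums of all 7 astrocyte markers overlapped at D28 through GJA1. FABP7 of the progenitor list was also lower in dKO at P4, so this movement was not particular to neuron and astrocyte markers. In bulk RNA fewer cells of a type and less RNA per cell cannot be told apart.

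Summed markers of several other lineages were higher in dKO than in WT cells, while single markers within the lists differed in direction. The 8 mesenchymal markers summed to 1707.5 to 1727 CPM in dKO P4 NPCs and 256 to 268 CPM in WT P4 NPCs, and to 847 to 1026 CPM in dKO and 150.2 to 374 CPM in WT NPCs at P2. At D28 they summed to 294.7 to 399.7 CPM in dKO and 193.2 to 205.9 CPM in WT cells, and the members split. COL1A2 was higher in dKO D28 cells (186.5 and 185.8 CPM, against 29.6 and 31.7 CPM in WT). COL3A1 (18.4 and 7.22 against 51.5 and 54.9 CPM) and PDGFRB (38.4 and 16.3 against 91.6 and 97.7 CPM) were lower there. The 5 epithelial and choroid plexus markers summed to 669 to 1212 CPM in dKO D28 cells and 21.6 to 22.6 CPM in WT D28 cells. KRT8 (386 and 655 CPM) gave most of the dKO D28 sum, and TTR had 1.19 and 0 CPM there. The 6 cartilage markers summed to 1008.5 to 1170.5 CPM in dKO D28 cells and 209 to 216 CPM in WT D28 cells. COL2A1 was the largest of them in dKO D28 cells (728 and 582 CPM), and WT P2 NPCs had 674 and 732 CPM of it. COMP and MATN1 were at 0 in all 4 P2 samples and at most 1.52 CPM in dKO D28 cells. At P2 that list summed to 1469 to 1512 CPM in dKO and 1096 to 1242.5 CPM in WT NPCs, so both genotypes were lower at D28, and WT by more. SOX9 of that list was lower in dKO P4 NPCs (138 and 145 CPM, against 231 and 295 CPM in WT). The 6 neural crest markers summed to 86.8 to 172 CPM in dKO D28 cells and 1.29 to 2.13 CPM in WT D28 cells. PAX7 (69.4 and 61.2 CPM) was the largest of them in dKO D28 cells. FOXD3 was at 0 there, and SOX10 had 0.238 and 0.38 CPM. The 4 endothelial and blood markers summed to at most 3.69 CPM in any sample. Sums led by a few markers do not identify a cell type. The part of these markers in the results for the matrix genes was not tested.

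The other genes of the matrix were counted by 8 lists with 69 genes, of which 53 passed the low-count filter. These lists, too, were written with results of these data known. At D28, 19 of the 53 were called higher and 9 lower in dKO than in WT cells, against 12.4% and 11.7% of all genes. At P4, 14 were higher and 12 lower, against 11.1% and 11.2%. At P2, 4 were called higher and 3 lower, where 4.42% of all genes were called in either direction. From P2 to D28 in WT cells 11 were called higher and 15 lower, against 24.4% in either direction. The adjusted p-values below are those of edgeR over all 13454 genes. Most genes named are the largest called rise or fall of a list, so these p-values are small by selection and serve as a description.

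The tested proteases that cleave lecticans were mostly higher in dKO cells at P4 and D28. At P2 only ADAMTS15 of the 6 tested was called (1.77 ± 0.38, adjusted p = 0.0199), where 2.59% of all genes were called as higher. MMP14 was just under the 2-fold threshold there (0.99 ± 0.24), with MMP2 at 0.75 ± 0.22, ADAMTS9 at 0.52 ± 0.24, MMP9 at 0.20 ± 2.53 and ADAMTS1 at -0.52 ± 0.28. Of the 6 tested, 6 were called higher at P4 and 5 at D28, against 11.1% and 12.4% of all genes called as higher, with a median log2 difference of 2.31 and 2.03. Their log2 differences at P4 ran from 1.57 ± 0.35 (ADAMTS15, adjusted p = 0.00201) to 5.07 ± 1.07 (MMP9, adjusted p = 0.0037), with ADAMTS1, ADAMTS9, MMP2 and MMP14 between them. MMP9, a gelatinase, had 0.660 and 0.254 CPM in WT P4 NPCs and 15.4 and 15.5 CPM in dKO P4 NPCs, and 1.54 and 1.49 CPM in WT D28 cells and 9.30 and 42.0 CPM in dKO D28 cells (log2 difference 4.08 ± 0.66, adjusted p = 0.00062). The D28 value was 2.60 without dKO D28 replicate 2 and 4.77 without replicate 1, and the P4 value ran from 4.44 with the GC content and gene length correction to 5.77 without WT P4 replicate 1. ADAMTS9, an aggrecanase-type protease that cleaves versican, had 77.0 and 103 CPM in WT NPCs at P2 and 7.70 and 6.45 CPM in WT D28 cells, a log2 change of -3.70 ± 0.27 (adjusted p = 2.61e-07). In dKO cells ADAMTS9 had 131 CPM in both P2 samples and 73.0 and 126 CPM at D28. ADAMTS15 at D28, at 4.97 and 4.57 CPM in the WT samples against 2.86 and 8.17 CPM for dKO, was not called. Of the 10 listed proteases, ADAMTS4, ADAMTS5, ADAMTS8 and ADAMTS20 did not pass the filter and had at most 7.87 CPM in any sample. At D28 ADAMTS5 was lower in dKO (1.19 and 0.38 CPM, against 2.13 and 3.67 CPM in WT). ADAMTS20 was higher (7.87 and 2.85 against 0.592 and 0.298 CPM), and ADAMTS4 and ADAMTS8 overlapped. At P4 ADAMTS8 and ADAMTS20 were higher in dKO, ADAMTS4 was lower and ADAMTS5 overlapped. The calls above therefore cover the 6 tested proteases only.

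**Figure D4:**
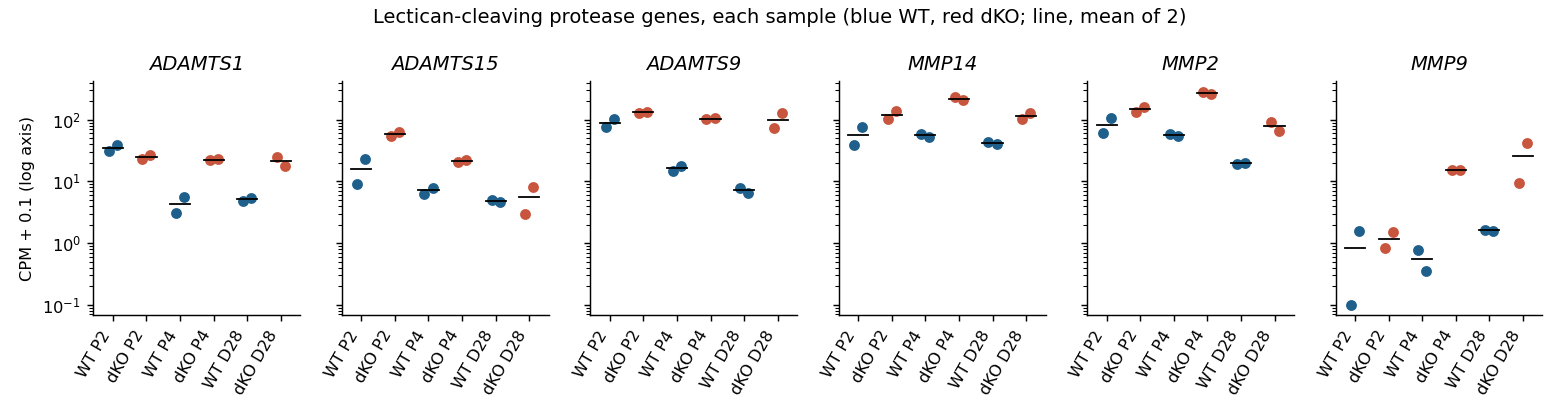
CPM of the 6 tested lectican-cleaving proteases in each of the 12 samples (points, WT blue and dKO red; line, mean of 2) on a log axis after adding 0.1. At P4 the dKO samples lie above the WT samples for all 6 genes, and at D28 for the 5 genes other than ADAMTS15.

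Other chondroitin sulfate proteoglycan cores split into both directions. Of 6 tested, 2 were called higher and 3 lower in dKO cells at D28, where 12.4% of all genes were called higher and 11.7% lower, and 1 higher and 3 lower at P4 (11.1% and 11.2% of all genes). CSPG4, known as NG2 from pericytes and oligodendrocyte precursors, was higher in dKO D28 cells (7.93 and 5.86 CPM in WT, 30.1 and 22.8 CPM in dKO, log2 difference 1.94 ± 0.25, adjusted p = 5.76e-06). SPOCK3, a testican, was lower there, where the WT samples had 17.1 and 19.5 CPM against 3.10 and 1.14 CPM for dKO (-3.15 ± 0.34, adjusted p = 1.03e-06), by -3.97 or -2.54 with dKO D28 replicate 1 or 2 left out. SPOCK2, another testican, rose from P2 to D28 in WT cells (10.3 and 7.33 to 135 and 136 CPM, 4 ± 0.67, adjusted p = 0.00191), while SPOCK1 fell (-1.27 ± 0.40, adjusted p = 0.0312). The SPOCK1 fall was not called without WT NPC replicate 2 (-1.10).

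Enzymes that build and sulfate chondroitin chains gave 3 called higher and 3 lower of 19 tested in dKO cells at D28, and 3 higher and 2 lower at P4, shares near the 24.2% and 22.3% of all genes called. UST, which sulfates uronic acid at the 2-O position, stood at 2.25 and 1.49 CPM in the WT samples and at 19.6 and 36.1 CPM in the dKO samples at D28 (3.91 ± 0.31, adjusted p = 3.14e-08). CHST7, a 6-O-sulfotransferase, stood at 31.6 and 33.9 CPM in the WT samples and at 4.05 and 1.71 CPM in the dKO samples (-3.54 ± 0.27, adjusted p = 1.89e-08; -4.24 without dKO D28 replicate 1). From P2 to D28 in WT cells the same pair was at the ends of the list, with CHST7 higher (3.79 ± 0.42, adjusted p = 2.64e-06, and 4.64 without WT NPC replicate 2) and UST lower (-3.05 ± 0.44, adjusted p = 3.39e-05). The 2 sulfotransferases were named as the largest called rise and the largest called fall at D28, so their opposite directions there follow from that choice. The WT D28 samples enter both comparisons, so the WT change is no separate support.

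Of the 4 tested genes that make or degrade hyaluronan, CEMIP2, a cell surface protein tied to hyaluronan breakdown, was called higher in dKO D28 cells (35.8 and 39.7 CPM in WT, 142 and 246 CPM in dKO, 2.37 ± 0.20, adjusted p = 8.8e-07) and fell from P2 to D28 in WT cells (-2.49 ± 0.22, adjusted p = 2.23e-06). Its relative CEMIP, named after its values were seen, was called lower in dKO P4 NPCs, where WT samples had 68.3 and 77.7 CPM and dKO samples 3.23 and 3.62 CPM (-4.40 ± 0.24, adjusted p = 5.58e-10). Of the 3 tested hyaluronan receptors, HMMR, also a mitotic spindle protein, was higher in dKO D28 cells (2.82 ± 0.24, adjusted p = 1.54e-07) and fell from P2 to D28 in WT cells (-2.89 ± 0.29, adjusted p = 1.5e-06). CD44, the main hyaluronan receptor, was lower in dKO D28 cells (7.10 and 8.84 CPM in WT, 2.86 and 3.23 CPM in dKO, -1.37 ± 0.26, adjusted p = 0.000279).

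Of 9 tested receptors for proteoglycans and tenascins, 3 were called higher and 1 lower in dKO D28 cells, against 12.4% and 11.7% of all genes. CNTN1 (contactin-1), a neuronal adhesion protein that binds TNR, was at 68.4 and 64.5 CPM in the WT samples and at 13.6 and 13.1 CPM in the dKO samples at D28 (-2.31 ± 0.18, adjusted p = 1.76e-08), and it rose from P2 to D28 in WT cells (2.38 ± 0.24, adjusted p = 9.53e-07). ITGA9, an integrin subunit that binds TNC, was called higher in dKO D28 cells (1.32 ± 0.37, adjusted p = 0.00665), but not without dKO D28 replicate 2 (0.51), without WT D28 replicate 2 (1.00) or with the GC content and gene length correction (0.87). RTN4RL2, a Nogo receptor relative, fell from P2 to D28 in WT cells (-1.28 ± 0.38, adjusted p = 0.0141; -2.13 with the same correction). Of 6 tested ligands of lecticans and their chains, 4 were called higher and 1 lower in dKO D28 cells, against the same shares of all genes. FBLN2 (fibulin-2) was higher (7.70 and 6.95 CPM in WT, 57.0 and 35.5 CPM in dKO, 2.65 ± 0.23, adjusted p = 1.15e-07) and NPTX2, a neuronal pentraxin, was lower (-1.96 ± 0.22, adjusted p = 1.43e-06). In WT cells from P2 to D28, NPTX2 rose (1.74 ± 0.30, adjusted p = 0.00021) and MDK (midkine), a growth factor that binds chondroitin sulfate, fell (-2.27 ± 0.15, adjusted p = 2.96e-08). Of the other 2 tenascins, TNN had 17 counts in all and TNXB had 0.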

How the data were processed

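RNA of 12 samples was extracted with TRIzol, prepared with a TruSeq kit and sequenced on a NextSeq instrument. Per the labels and the study's methods, reads were mapped to hg38 with HISAT2 2.0.4, handled with SAMtools 1.3.1 and counted with htseq-count 0.6.0. The deposited counts are whole numbers of reads for each Ensembl gene, neither normalized nor filtered. The authors' GC and length normalization and DESeq 1.18.1 test came after them. The annotation release and strand setting are not given in the sources used here. Groups and replicate numbers come from the labels, which name passage 4 but not passage 2, taken from the study's text, and which give no batch, so a batch and a group cannot be told apart.

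GENCODE v44 gave symbols, coordinates and exonic length for 57532 of 58302 genes (98.7%), which hold 99.8% of the counts. In R 4.3.3, the 12 samples were fitted as 6 group means in edgeR 4.0.16 with its quasi-likelihood test (robust, TMM, mean of at least 20 counts), and p-values were Benjamini-Hochberg adjusted over 13454 genes. The fit was tested on simulated counts. With 2 samples against 2, an exact two-sided permutation test cannot go below 0.333. The members and lists were chosen with earlier results of these data known. Named besides the members and KDM6A and KDM6B were, in each list, the called gene with the largest rise and fall in dKO versus WT D28 cells and in WT D28 cells versus WT NPCs, and the 2 genes most correlated with each member. Those for HAPLN1 are not reported here. The 6 tested proteases were named together. CEMIP, the 4 untested proteases and the markers named singly were named after their values were seen. Alternatives were DESeq2 1.42.0, adjusted calls, 2 other low-count filters (at least 1 count in any sample, at least 10 in every sample), a GC content and gene length correction over 10 bins (13394 genes), the replicate number as a block, and leaving out each sample. Those for the related genes were added after seeing the data. Promoter sequences are from RefSeq (GRCh38.p14), with 8 of the 10 genes matched.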

Additional observations from a re-analysis of the deposited data

Results flagged for a closer look

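The change from P2 NPCs to D28 cells differed between the genotypes in 4 of the 6 tested genes, as a contrast of the edgeR fit in which 23.2% of all genes were called. The difference of the log2 changes, dKO minus WT, was -8.96 ± 0.85 (SE) for BCAN, -1.43 ± 0.22 for NCAN, -5.13 ± 0.59 for TNC and -9.37 ± 4.25 for TNR. Leaving out 1 sample moved BCAN to -8.34 (dKO NPC replicate 1) and TNC to -6.45 (WT NPC replicate 2). The genes were listed with these contrasts known, so the values are a description. The TNR value rests on 0 counts in WT P2 NPCs and 1 count in dKO P2 NPCs, its size depends on the prior count, and it was not called with the replicate block, with the GC content and gene length correction, or when any of 5 samples was left out.

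In 3 genes the P4 samples lay without overlap on one side of the P2 samples in WT NPCs and on the other side in dKO NPCs. The difference between the genotypes was not tested. The share of all genes that meet this rule was not counted, so nothing is read from the number of genes. NCAN changed by 3.90 in WT and -0.57 in dKO NPCs, VCAN by 0.15 and -0.49, and TNC by 3.24 and -2.22, on the log2 scale. The VCAN change in WT NPCs is small, with 773 CPM in the higher P2 sample and 777 CPM in the lower P4 sample, and with the GC content and gene length correction it was -0.13, the same sign as in dKO NPCs. Groups of 2 samples are too small to look for a sample far from the others.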

How the results depend on the processing

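Of 963 fold changes of the members and of the named related genes under the alternatives, 907 kept their direction and their side of the threshold, 16 were no longer called, 14 became called, 26 that were not called changed sign, and 0 called values reversed. Of 198 counts of calls, 173 stayed within 1.5 times. At P2, the count of members called went from 1 to 2 with DESeq2 and to 0 with the adjusted p, and from P2 to D28 in dKO cells it went from 2 to 1 with the adjusted p. Requiring 10 counts in every sample removes BCAN, TNR and HAPLN1 from the test. It left 2 members called in dKO versus WT at P4, at D28, in WT D28 versus NPCs, in WT P4 versus P2 and in the genotype difference (4 otherwise), and 1 in dKO D28 versus NPCs. That filter left 3 related genes called at P2 (7 otherwise), 12 at P4 (26), 14 at D28 (28), 15 in WT D28 versus NPCs (26), 3 in dKO D28 versus NPCs (9), 13 in WT P4 versus P2 (25), 5 in dKO P4 versus P2 (14) and 18 in the genotype difference (28), and 3, 3 and 2 proteases at P4, at D28 and in WT D28 versus NPCs. Under that filter 9967 genes were tested, in place of 13454. Of these it called 2% at P2, 16.6% at P4, 18.9% at D28 and 19.2% in WT D28 versus NPCs. It called 3.51% in dKO D28 versus NPCs and 14.7% in WT P4 versus P2. The shares were 5.9% in dKO P4 versus P2 and 20.1% in the genotype difference. How many related genes were still tested is not given, so nothing is read from the lower counts. With the adjusted p, 3 related genes were called at P2, where 1.48% of all genes were called.

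Leaving out 1 sample gave 1 to 2 members called at P2 (2 without dKO NPC replicate 2), 4 to 5 at P4, 4 to 5 at D28, 4 in both WT changes, 1 to 2 in dKO D28 versus NPCs (1 without dKO NPC replicate 1), 1 in dKO P4 versus P2 and 3 to 5 in the genotype difference. It gave 5 to 12 related genes at P2 (12 without WT NPC replicate 2), 24 to 27 at P4, 26 to 31 at D28, and 6 and 5 proteases at P4 and D28. Where a group was left with 1 sample, that sample was assumed to vary like the others.

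The replicate numbers share no source that the labels name. The deviation of a sample from its group mean correlated with that of its namesakes at -0.055 to 0.182 over the pairs of groups, so the numbers were not taken as pairs. With the replicate block, 2 members were called at P2, 5 at P4, 5 at D28 and 3 in the genotype difference, and the other counts were as without it. The GC content and gene length correction left the 4 members called at P4 and D28. Depth limits the P2 NPCs most, where 3 counts are worth 2.09 to 3.96 CPM, and BCAN and TNR there rest on 0 to 6 counts in a sample.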
